A study of Mus musculus with 5 samples.

Results

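Solute carriers are membrane proteins that move small molecules, among them sugars, amino acids, neurotransmitters, metals and inorganic ions, across the plasma membrane or the membranes of organelles. Some let a solute run down its own gradient, and others couple it to a gradient of sodium, protons or another ion. Their genes are named Slc, then a family number set by sequence similarity, a letter and a member number, so the family number is a rough guide to the substrate. Pluripotent cells depend on several of them for glucose, amino acid and nucleotide precursor supply.

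The genes described here are all symbols in the table that match the pattern Slc, family number, letter and member number. There were 169 of them, from 38 families, among 10855 gene symbols and 24538 genes in all. They were divided by family number into substrate groups, and 5 of the 169 are pseudogene or opposite-strand rows and not carriers (Slc13a2os, Slc22a13b-ps, Slc2a4rg-ps, Slc36a1os and Slc6a19os). The same pattern matches 377 symbols in the GENCODE vM21 annotation. Genes with no row under their own symbol, among them the glucose transporter genes Slc2a1 and Slc2a3 and the amino acid transporter genes Slc3a2 and Slc7a5, are not analysed here.

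Poly(A) RNA was measured in embryonic stem cells of the mouse, a pluripotent culture derived from the blastocyst. Of the libraries, 3 were of wildtype cells (wildtype 1 to 3) and 2 of cells lacking the −45 super-enhancer (deleted 1 and 2), a dense enhancer cluster named by its position relative to the pluripotency gene Nanog. The protocol text common to all libraries gives 6 days of ethanol vehicle or of tamoxifen (4OHT) in 6-well plates, and it does not say which library received which. The labels name no strain, age or sex, and leave it unsaid whether the libraries are of different cultures or of 1 clone. The p-values therefore cover only how far these libraries differ among themselves, which may be technical variation.

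The data are read counts per exon bin, a bin being an exon or a piece of one, which were summed per gene. Totals ran from 93574609 to 213042746 counts per library, and the Slc genes took 0.00827% to 0.00924% of them. Levels are given as CPM, counts scaled to library totals adjusted by TMM. A single count was worth 0.00463 to 0.0107 CPM, and all depth statements cover counting error only. Symbols as a whole held 0.328% to 0.375% of the counts, so the counts under symbols are low. A named gene's reads may be split with an assembled transcript listed only by an ID. A low level under a symbol therefore does not show that the gene's transcript is scarce. Wildtype 3 was the deepest library and stood furthest from the others of its group. None of 20 listed pluripotency markers had a row, so the cell type was not checked against them. Among markers of other cell types, 11 of 11 tested genes of the 2-cell-like list were higher in the deleted libraries (summed level 17.1 to 17.4 CPM against 2.95 to 3.25 CPM, with Tcstv1 and Tcstv3 at 0). Of the fibroblast or feeder list, 5 of 7 tested genes were higher and 0 lower (13.5 to 13.7 CPM against 9.18 to 12.4 CPM, with no listed gene that had a row at 0). Of the primitive endoderm list 3 of 9 were lower and 0 higher (5.71 to 6.96 CPM against 8.46 to 9.49 CPM, with Ttr at 0), and of the trophectoderm list 2 of 5 were lower and 0 higher (1.95 to 2.09 CPM against 2.60 to 3.03 CPM). Mesoderm markers had 2 of 7 higher and 0 lower (3.87 to 3.89 against 3.51 to 4.36 CPM), and neuroectoderm markers 1 of 4 higher and 1 lower (5.04 to 5.80 against 4.68 to 6.94 CPM). Beside these counts, 18.9% of all tested symbols were higher and 12.9% lower at the same threshold, an adjusted p under 0.05. The part of these lists in the Slc results was not tested.

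Of the 169 Slc genes, 89 had enough counts for a test, 63 had fewer (at most 47 counts over all 5 libraries) and 17 had no count in any library. Among the 17 were the kidney organic anion transporter genes Slc22a6 and Slc22a8 and the beta-cell zinc transporter gene Slc30a8. With no count in a library, a level of up to 0.0139 to 0.0321 CPM (3 counts) is not excluded. By edgeR's quasi-likelihood test at an adjusted p under 0.05, the deletion libraries had 19 of the 89 higher and 13 lower, and 57 did not pass. The calls make up 21.3% higher and 14.6% lower. The same call was made for 39.5% of all tested genes and 31.8% of tested symbols, 18.9% higher and 12.9% lower, so the Slc share lies near the background. Their median log2 fold change, deleted minus wildtype, was 0.07, and that of all tested symbols was 0.07. Of the 19 rises 10 were larger than 2-fold, and of the 13 falls 3 were. In bulk RNA, fewer cells that express a gene and less RNA per cell cannot be told apart.

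**Figure D1:**
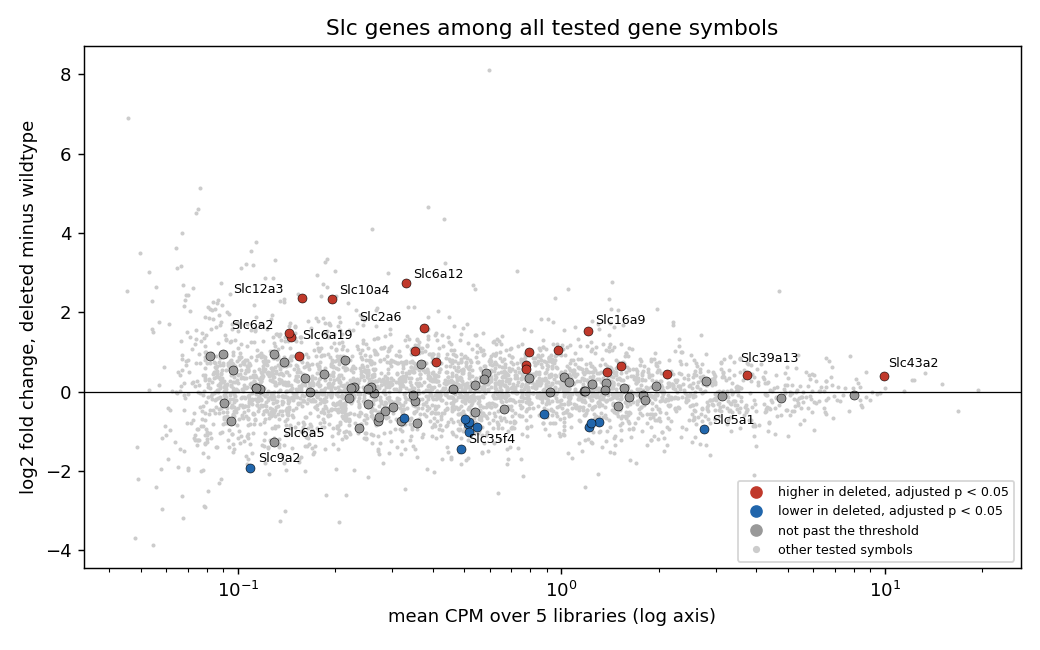
Each point is a tested gene symbol, with its mean CPM over the 5 libraries (log axis) against its log2 fold change, deleted minus wildtype. Large coloured points are the 89 tested Slc genes, of which 19 were higher and 13 lower, and small grey points are the other symbols. The Slc genes with log2 fold changes above 2 lie below 1 CPM, and Slc43a2 is the Slc point furthest right (levels here are not per length).

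Calls depended on depth and on single libraries. The low-count filter asked for the equivalent of 10 counts in at least 2 libraries. It was met in the deleted libraries alone by 7 Slc genes, of which 4 were called (Slc10a4, Slc12a3, Slc6a2 and Slc6a19, all higher), and in wildtype alone by 5, of which 1 was called (Slc9a2, lower). Such genes could pass only by being high in that group. With each single library left out in turn, 13 of the 32 calls held every time, 8 higher and 5 lower. Without deleted 1 the total of called Slc genes fell to 17 and without deleted 2 to 17, and of all tested symbols 14.1% and 15.6% were then called. The plot of levels by library shows these 13 genes in order of their change.

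**Figure D2:**
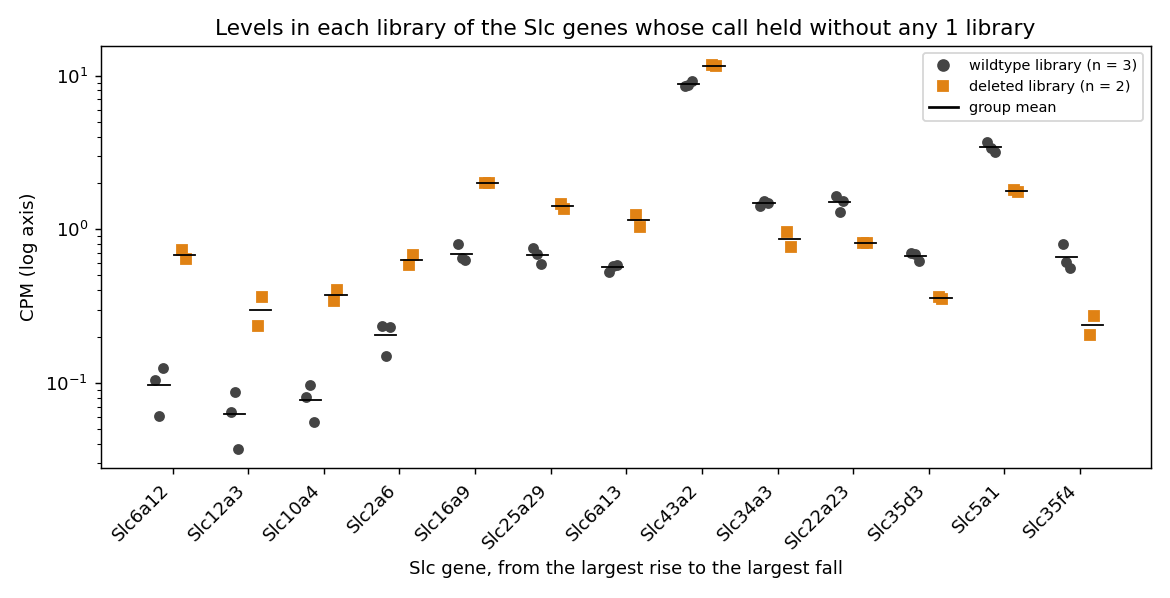
CPM (log axis) of the 13 Slc genes that passed with each single library left out, ordered from the largest rise to the largest fall. Circles are the 3 wildtype libraries, squares the 2 deleted libraries and lines the group means. Changes run from a 6.64-fold rise in Slc6a12 to a 2.71-fold fall in Slc35f4. Every deleted library lies outside the wildtype range in each of these genes, as in all 32 called genes. The genes were chosen by their calls in these same libraries, so this separation is no further evidence.

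The largest rise was in the family of sodium- and chloride-coupled transporters for neurotransmitters, osmolytes and amino acids, numbered 6. Slc6a12 (BGT1), which carries betaine and GABA, stood at 0.104, 0.0613 and 0.125 CPM in wildtype 1, 2 and 3 and at 0.729 and 0.636 CPM in deleted 1 and 2. The lower deleted library was thus well above the highest wildtype one. These levels rest on 13, 7 and 27 counts in wildtype and 68 and 63 counts in deleted. This gave a log2 fold change of 2.73 with an SE of 0.27 (edgeR adjusted p = 0.000321); other fold changes are also given ± SE. Slc6a13 (GAT2), a carrier of GABA and taurine, read 0.531, 0.578 and 0.583 CPM in wildtype and 1.24 and 1.04 CPM in deleted, a log2 fold change of 1.01 ± 0.15 (edgeR adjusted p = 0.00172). Both passed with any single library left out.

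Slc6a13 and Slc6a12 lie next to each other on chromosome 6, with no protein-coding gene between them in GENCODE vM21. Nanog is on the same chromosome, 14 protein-coding genes beyond Slc6a12. The gene on the far side of Slc6a12, Iqsec3, was also higher, at 0.166 against 0.0538 CPM (log2 fold change 1.74, edgeR adjusted p = 0.0183). On the other side, Usp18, next to Slc6a13, had 0.115 against 0.0609 CPM and did not pass (log2 fold change 0.97, adjusted p = 0.143). The wildtype means of Iqsec3 and Usp18 lay below the filter's 0.0871 CPM, so either may have been tested only through the deleted libraries. Neither gene was followed with a library left out. Of the other tested Slc genes on that chromosome, Slc25a18, with 23 protein-coding genes between it and Nanog, had a log2 fold change of 0.89 ± 0.52 (adjusted p = 0.211). Slc6a11 (GAT3), a GABA carrier with 92 between, had 0.81 ± 0.29 (adjusted p = 0.0601). Slc41a3 and Slc13a4, with 191 and 664 between, had 0.16 ± 0.19 and −0.01 ± 0.15 (adjusted p = 0.546 and 0.969). The 196 tested symbols of chromosome 6 had a median log2 fold change of 0.10, with 22.4% higher and 13.8% lower. Whether the change depends on distance from Nanog was not tested.

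Slc6a12 and Slc6a13 rose together, so the 250 bases before their most upstream RefSeq start are shown. Those of Slc16a9 and Slc5a1, the called rise and fall with the smallest p, are given beside them. All are from RefSeq on GRCm38.p6, a later build than the authors' mm9, 5′ to 3′ on the plus strand, at chr6:121342324-121342573, chr6:121300038-121300287, chr10:70245026-70245275 and chr5:33103969-33104218. RefSeq lists 5 starts for Slc6a12, 3 for Slc6a13 and 1 for each of the others, and the data do not show which start was used. Capitals mark a GC box (GGGCGG), an E-box (CACGTG) or a TATA box (TATAAA) on either strand. Overlapping matches were counted.
Slc6a12: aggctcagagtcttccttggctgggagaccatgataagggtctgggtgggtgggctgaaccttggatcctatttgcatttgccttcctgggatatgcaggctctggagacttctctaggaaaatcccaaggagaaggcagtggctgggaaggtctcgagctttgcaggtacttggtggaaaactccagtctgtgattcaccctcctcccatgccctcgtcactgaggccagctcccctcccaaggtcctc
Slc6a13: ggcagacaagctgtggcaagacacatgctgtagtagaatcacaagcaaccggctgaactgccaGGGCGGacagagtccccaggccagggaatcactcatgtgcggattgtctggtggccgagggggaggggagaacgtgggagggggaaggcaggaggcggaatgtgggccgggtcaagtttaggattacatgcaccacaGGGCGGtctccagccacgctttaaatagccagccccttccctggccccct
Slc16a9: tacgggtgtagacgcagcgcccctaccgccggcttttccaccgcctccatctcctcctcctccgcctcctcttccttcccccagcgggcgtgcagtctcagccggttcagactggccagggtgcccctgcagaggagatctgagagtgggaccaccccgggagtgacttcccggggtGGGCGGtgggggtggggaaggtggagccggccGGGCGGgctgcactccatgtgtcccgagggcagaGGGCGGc
Slc5a1: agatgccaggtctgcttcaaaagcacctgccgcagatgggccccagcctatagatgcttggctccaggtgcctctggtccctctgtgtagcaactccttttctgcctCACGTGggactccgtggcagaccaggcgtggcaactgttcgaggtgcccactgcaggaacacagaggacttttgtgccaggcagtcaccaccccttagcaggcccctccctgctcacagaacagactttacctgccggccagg

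The stretch before Slc6a12 held none of the 3 motifs and 2 CpG sites, and that before Slc6a13 held 2 GC boxes and 9 CpG sites. Slc16a9 had 3 GC boxes and 18 CpG sites, while Slc5a1 had 1 E-box and 6 CpG sites. Of 32851 promoters of the same length in the table, 32.7% held a GC box, 6.02% an E-box and 12.4% a TATA box, with a median of 6 CpG sites. The first listed starts of 17 higher Slc genes had a median of 13 CpG sites, those of 12 lower genes 10.5, those of 42 tested genes that did not pass 9.5 and those of 63 untested genes 4. These are counts of letters and show no use of a site.

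Counts along the gene differed between the neighbours. In Slc6a12, bins 1 to 7 of 15 held 4 counts over the 3 wildtype libraries and 22 over the 2 deleted libraries, and bins 8 to 15 held 43 and 109. All 5 bins with at least 10 counts were higher on average in the deleted libraries. In Slc6a13, bins 1 to 7 held only 5 and 10 counts, against 253 and 209 in bins 8 to 15. Nearly all its counts thus came from the later bins in both groups. These are raw sums over 3 wildtype and 2 deleted libraries of unequal depth. Scaled to depth, Slc6a13 had mean levels of 0.564 CPM in wildtype and 1.14 CPM in deleted. All 8 of its bins with at least 10 counts were higher on average in the deleted libraries.

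**Figure D3:**
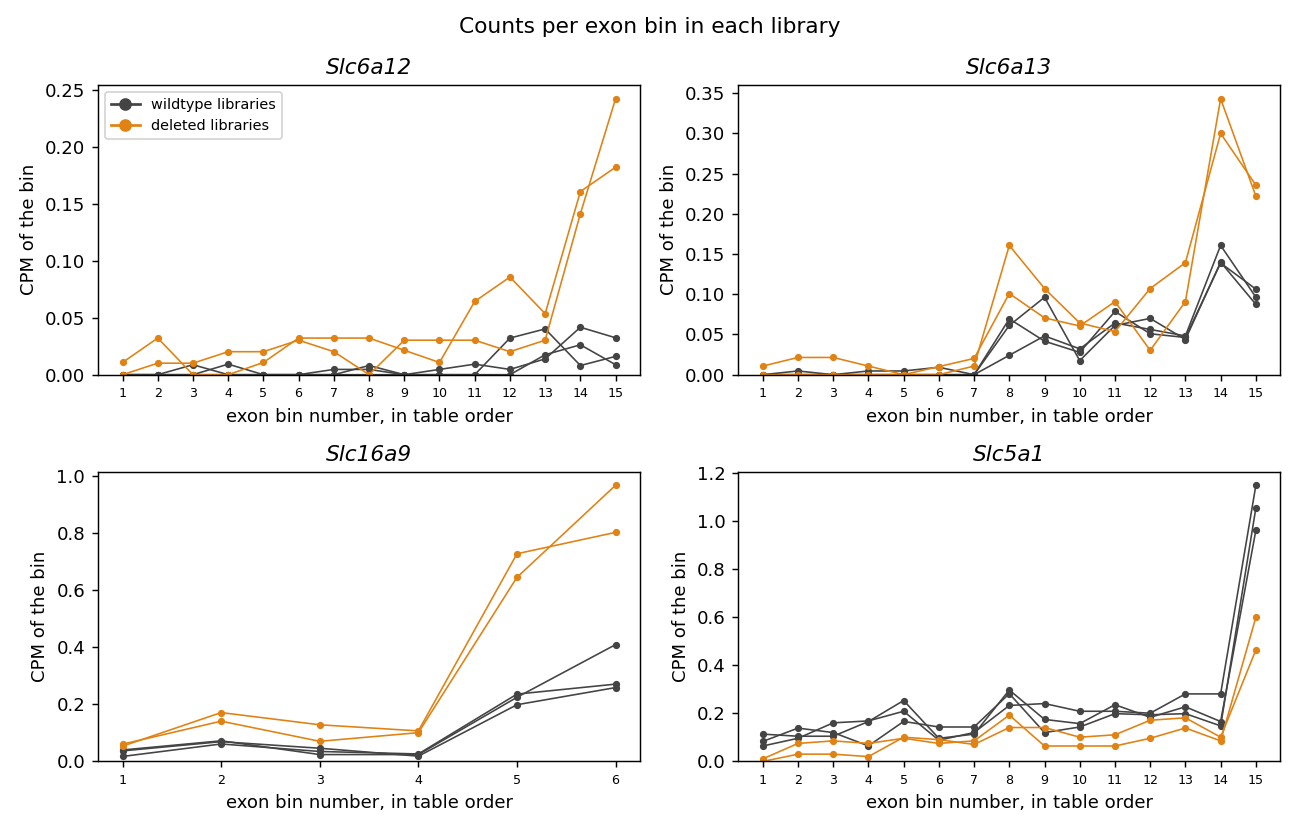
CPM of each exon bin, in table order, for Slc6a12, Slc6a13, Slc16a9 and Slc5a1, with 1 line per library (dark, 3 wildtype; orange, 2 deleted). The deleted libraries lie above wildtype in all 6 bins of Slc16a9 on average and below it in all 15 bins of Slc5a1, while Slc6a13 has almost no counts before bin 8.

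Of 10 tested family 6 genes, 4 were higher and 1 lower, beside 18.9% higher and 12.9% lower among all tested symbols. Among the rises, Slc6a19 and Slc6a2 met the low-count filter through the deleted libraries alone. Slc6a19 (B0AT1), a neutral amino acid carrier of gut and kidney, had 0.0870 ± 0.0129 CPM in wildtype (SD, n = 3) and 0.235 ± 0.0320 CPM in deleted (SD, n = 2), a log2 fold change of 1.38 ± 0.30. Slc6a2, the noradrenaline transporter gene, had 0.0825 ± 0.0384 and 0.235 ± 0.0614 CPM, a log2 fold change of 1.48 ± 0.41. Each rests on 26 or fewer counts per library. The fall was in Slc6a9 (GlyT1), the glycine carrier of embryos and glia, which read 1.35, 1.65 and 1.68 CPM in wildtype and 0.954 and 0.898 CPM in deleted, a log2 fold change of −0.76 ± 0.15 (edgeR adjusted p = 0.00595). The other glycine carrier, Slc6a5 (GlyT2), had −1.27 ± 0.44 and missed the threshold at adjusted p = 0.0528, as did Slc6a14 at −0.78 ± 0.27 (0.0539). Slc6a5 met the filter through the wildtype libraries alone and had only 8 and 5 counts in deleted 1 and 2. Without deleted 1 the calls of Slc6a19 and Slc6a2 ended (adjusted p = 0.0842 and 0.178), and without deleted 2 those of Slc6a2 and Slc6a9 (0.0576 and 0.0502). Exons of Slc6a9 overlap those of B4galt2, Ccdc24 and Gm17114 in the annotation, and with no strand setting given, reads of these genes cannot be separated.

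In the same substrate group are the transporters that load synaptic vesicles. Slc17a7 (VGLUT1), for glutamate, was higher, at 1.28, 1.30 and 1.16 CPM in wildtype and 1.76 and 2.15 CPM in deleted, a log2 fold change of 0.65 ± 0.13 (edgeR adjusted p = 0.00681). Slc18a3 (VAChT), for acetylcholine, was lower, at 0.382 ± 0.0176 CPM in wildtype (SD, n = 3) and 0.239 ± 0.00460 CPM in deleted (SD, n = 2), a log2 fold change of −0.67 ± 0.21 (edgeR adjusted p = 0.0362). Slc32a1 (VGAT), for GABA and glycine, had −0.45 ± 0.17 and did not pass (0.0747). The Slc17a7 call ended without deleted 2 (adjusted p = 0.0734). That of Slc18a3, a gene of 1 bin, ended without any single library (0.0535 to 0.159), with DESeq2 (0.110), with limma-voom (0.0534) and with the replicate block (0.0695). In the whole group of 13 tested, 5 rose, 2 fell and 6 missed the threshold, with a median log2 fold change of 0.47. All tested symbols had 18.9% higher, 12.9% lower and a median of 0.07. Slc6a2 and Slc6a19 met the low-count filter through the deleted libraries alone and Slc6a5 through wildtype alone. The figures of the group thus depend in part on the filter.

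Family 16 carries lactate, pyruvate and other monocarboxylates, thyroid hormone and aromatic amino acids. Of its 5 tested genes, 3 passed as higher and none as lower, beside 18.9% higher and 12.9% lower among all tested symbols. All 5 log2 fold changes were positive, but Slc16a7 and Slc16a11 could be tested only by being high in the deleted libraries. Slc16a9 (MCT9), a carnitine and creatine carrier, read 0.796, 0.648 and 0.629 CPM in wildtype and 1.99 and 1.99 CPM in deleted. Its deleted libraries were close together and more than 2-fold above every wildtype library. This gave a log2 fold change of 1.53 ± 0.14 (edgeR adjusted p = 0.000261, the smallest of the Slc genes). Exons of the predicted genes Gm7097 and Gm9877 overlap those of Slc16a9. Slc16a14 (MCT14) had 0.625 ± 0.0558 CPM in wildtype (SD, n = 3) and 1.01 ± 0.0603 CPM in deleted (SD, n = 2), a log2 fold change of 0.68 ± 0.15. Slc16a10 (TAT1), for aromatic amino acids, had 1.86 ± 0.0612 and 2.53 ± 0.0922 CPM, a log2 fold change of 0.45 ± 0.10, and is named after its values were seen. Slc16a7 (MCT2) at 0.94 ± 0.41 and Slc16a11 at 0.55 ± 0.36 did not pass (adjusted p = 0.110 and 0.258), and both had passed the filter through the deleted libraries alone. The Slc16a14 call ended without deleted 2 (adjusted p = 0.0858), and the Slc16a10 call without deleted 1 or deleted 2 (0.0848 and 0.0524). Both ended in the most counted bin alone (0.0623 and 0.200). In the dicarboxylate family 13, Slc13a2 and Slc13a4 did not pass, at 0.45 ± 0.28 and −0.01 ± 0.15.

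Sugar and other sodium-coupled carriers had 1 rise and 1 fall among 8 tested genes, beside 18.9% higher and 12.9% lower among all tested symbols. Slc5a1 (SGLT1), which takes up glucose and galactose with sodium, read 3.71, 3.36 and 3.20 CPM in wildtype and 1.81 and 1.76 CPM in deleted. The wildtype libraries were all above 3 CPM and the deleted ones below 2 CPM, on 169 or more counts each. This gave a log2 fold change of −0.94 ± 0.11 (edgeR adjusted p = 0.000621), and all 15 bins were lower on average in the deleted libraries. Slc2a6 (GLUT6), a lysosomal member of the facilitative glucose transporter family, read 0.233, 0.149 and 0.231 CPM in wildtype and 0.589 and 0.676 CPM in deleted, a log2 fold change of 1.60 ± 0.23 (edgeR adjusted p = 0.00156), and all 10 of its bins with at least 10 counts were higher. Slc2a4 (GLUT4), the insulin-responsive glucose transporter of muscle and fat, had 0.451 ± 0.0449 CPM in wildtype (SD, n = 3) and 0.477 ± 0.0533 CPM in deleted (SD, n = 2), and did not pass (adjusted p = 0.807). Slc45a1 had 0.69 ± 0.25 and did not pass (0.0649). The iodide carrier gene Slc5a5, Slc5a10, Slc2a7 and the pseudogene Slc2a4rg-ps had log2 fold changes between −0.73 and 0.35 and did not pass.

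Amino acid carriers held the tested Slc gene with the highest level per kb. Of 10 tested, 2 were higher, 1 lower and 7 did not pass, beside 18.9% higher and 12.9% lower among all tested symbols. Slc43a2 (LAT4), which lets branched-chain amino acids and phenylalanine cross, read 8.53, 8.73 and 9.20 CPM in wildtype and 11.7 and 11.6 CPM in deleted. The difference was small beside the others but above the spread of the libraries, with a log2 fold change of 0.40 ± 0.07 (edgeR adjusted p = 0.00441), and it held without any single library. Its exons overlap those of the predicted gene Gm45606. Slc7a8 (LAT2), the light chain of a neutral amino acid exchanger, had 1.02 ± 0.0675 CPM in wildtype (SD, n = 3) and fell to 0.693 ± 0.0660 CPM in deleted (SD, n = 2), a log2 fold change of −0.56 ± 0.15. Slc38a3 (SNAT3), a glutamine carrier named after its values were seen, rose to 1.68 ± 0.149 from 1.18 ± 0.118 CPM (log2 fold change 0.51 ± 0.14.) The call of Slc7a8 ended without deleted 1 or deleted 2 (adjusted p = 0.0647 and 0.129) and in its most counted bin (0.240). That of Slc38a3 ended without wildtype 1, deleted 1 or deleted 2 (0.0676, 0.0585 and 0.161). Those that did not pass included Slc43a1 (LAT3) at 4.96 ± 0.329 and 4.46 ± 0.686 CPM and the arginine carrier gene Slc7a2 (CAT2) at 1.17 ± 0.0977 and 1.19 ± 0.00600 CPM.

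Among carriers of the inner mitochondrial membrane, 2 of 10 tested genes were higher and 0 lower. All tested symbols had 18.9% higher and 12.9% lower. Slc25a29, for basic amino acids, read 0.756, 0.691 and 0.597 CPM in wildtype and 1.46 and 1.36 CPM in deleted, a log2 fold change of 1.06 ± 0.15 (edgeR adjusted p = 0.00134). Its neighbour Slc25a47, with no protein-coding gene between them, had 0.09 ± 0.30 (adjusted p = 0.840). Slc25a34 read 0.185, 0.289 and 0.268 CPM in wildtype and 0.536 and 0.485 CPM in deleted, a log2 fold change of 1.03 ± 0.24, and its call ended without deleted 1 or deleted 2 (adjusted p = 0.0842 and 0.0547). Slc25a27 (UCP4), at −0.74 ± 0.27, missed the threshold (0.0624). Slc25a24, an ATP-magnesium/phosphate carrier, and Slc25a42, a coenzyme A carrier, had −0.20 ± 0.13 and 0.10 ± 0.12 and did not pass.

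Slc10a4, an orphan relative of the bile acid carriers that is found in synaptic vesicles, read 0.0804, 0.0963 and 0.0555 CPM in wildtype and 0.343 and 0.404 CPM in deleted. This rests on 10 to 12 counts per wildtype and 32 and 40 counts per deleted library, and 82.9% of all its counts lay in 1 of its 3 bins. This gave a log2 fold change of 2.33 ± 0.31 (edgeR adjusted p = 0.000977). Slc10a4 met the low-count filter through the deleted libraries alone. Slc10a6 and Slc10a1 (NTCP), the liver bile acid carrier, had 0.75 ± 0.33 and 0.34 ± 0.30, and the fatty acid and bile acid ligase gene Slc27a5 had −0.74 ± 0.44. None of these 3 passed (adjusted p = 0.113, 0.399 and 0.221).

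Ion carriers held a large rise at a low level. Slc12a3 (NCC), the thiazide-sensitive sodium-chloride cotransporter of the kidney, read 0.0643, 0.0875 and 0.0370 CPM in wildtype and 0.236 and 0.363 CPM in deleted, from 8 to 10 counts per wildtype library and 22 and 36 per deleted library. This gave a log2 fold change of 2.35 ± 0.40 (edgeR adjusted p = 0.00315). Slc12a3 met the low-count filter through the deleted libraries alone. Slc26a9, a chloride channel and anion exchanger of airway and stomach, had 0.620 ± 0.0881 CPM in wildtype (SD, n = 3) and fell to 0.361 ± 0.0961 CPM in deleted (SD, n = 2), a log2 fold change of −0.77 ± 0.23, with 57.6% of its counts in the last of 21 bins. Slc9a2 (NHE2), a sodium-proton exchanger, had 0.154 ± 0.0582 and 0.0419 ± 0.0165 CPM, a log2 fold change of −1.91 ± 0.56, from only 5 and 3 counts in the deleted libraries. Slc4a8, a sodium-driven chloride-bicarbonate exchanger gene, had 8.18 ± 0.624 and 7.78 ± 0.252 CPM and did not pass (adjusted p = 0.550). The potassium-chloride cotransporter gene Slc12a5 (KCC2) had 0.25 ± 0.15 and also did not pass. In the cation exchange group, Slc9a5 had 0.38 ± 0.22 and missed the threshold (0.204), but passed without wildtype 3 (0.59, adjusted p = 0.0222). It also passed when fitted with the replicate block (0.59, 0.0227). Wildtype 3 alone has replicate number 3 and adds nothing to the group difference in that fit. The block is thus no separate check. The Slc26a9 call ended without wildtype 1, wildtype 2 or deleted 2 (0.0726, 0.0649 and 0.196), and the Slc9a2 call without deleted 1 or deleted 2 (0.0954 and 0.175). Slc9a2 was not tested without wildtype 2 or wildtype 3, where it fell under the filter.

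Of 8 tested metal carriers, 2 rose, 1 fell and 5 did not pass, beside 18.9% higher and 12.9% lower among all tested symbols. Slc39a13 (ZIP13), a zinc transporter of the early secretory pathway, read 3.00, 3.39 and 3.52 CPM in wildtype and 4.38 and 4.46 CPM in deleted, a log2 fold change of 0.42 ± 0.10 (edgeR adjusted p = 0.0130), but its exons overlap those of the proteasome subunit gene Psmc3. Slc30a3 (ZnT3), the zinc transporter of synaptic vesicles, had 0.325 ± 0.0524 CPM in wildtype (SD, n = 3) and 0.540 ± 0.0507 CPM in deleted (SD, n = 2), a log2 fold change of 0.75 ± 0.21. Slc39a8 (ZIP8), an importer of zinc and manganese, read 0.748, 0.569 and 0.643 CPM in wildtype and 0.171 and 0.464 CPM in deleted, so deleted 1 was far below deleted 2. Its log2 fold change of −1.02 ± 0.34 became −0.49 without deleted 1 (adjusted p = 0.226), and the call also ended without wildtype 1 or wildtype 2 (0.0997 and 0.0650). Slc39a13 did not pass without deleted 1 or deleted 2 (0.0729 and 0.0967), nor Slc30a3 without wildtype 1, deleted 1 or deleted 2 (0.0625, 0.0772 and 0.152). In the most counted bin alone none of the 3 passed (0.104, 0.181 and 0.203). Slc39a3 (ZIP3) had 0.27 ± 0.10 and missed the threshold (0.0587), but passed without wildtype 3 (0.31, adjusted p = 0.0304). It also passed when fitted with the replicate block (0.31, 0.0329), which is no separate check, as wildtype 3 adds nothing to its group difference. Slc40a1, ferroportin, the iron exporter, had 1.19 ± 0.121 and 1.18 ± 0.0382 CPM, a log2 fold change of 0.01 ± 0.14.

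Family 35 holds the nucleotide sugar carriers of the Golgi and endoplasmic reticulum and relatives of unknown substrate. Slc35f4 read 0.796, 0.613 and 0.560 CPM in wildtype and 0.204 and 0.273 CPM in deleted, a log2 fold change of −1.44 ± 0.26 (edgeR adjusted p = 0.00371). Slc35d3 read 0.699, 0.691 and 0.625 CPM in wildtype and 0.364 and 0.353 CPM in deleted, a log2 fold change of −0.90 ± 0.18 (edgeR adjusted p = 0.00571). Both held without any single library, and exons of Slc35f4 overlap those of the predicted gene Gm48940. Slc35g2 was higher at 0.91 ± 0.29, on 14 to 22 counts per library, and its call ended without any single library (0.0645 to 0.232), with DESeq2 (0.125), with TMM on symbol rows (0.0589), without a filter (0.0601) and with the replicate block (0.127). Slc35f1 and the nucleoside carrier gene Slc28a3 did not pass.

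Of the organic ion carriers, Slc22a23 read 1.66, 1.30 and 1.52 CPM in wildtype and 0.814 and 0.808 CPM in deleted, a log2 fold change of −0.88 ± 0.15 (edgeR adjusted p = 0.00320), with 63.3% of its counts in 1 of 11 bins. Slc22a17, the lipocalin-2 receptor gene, had 0.619 ± 0.0795 CPM in wildtype (SD, n = 3) and fell to 0.358 ± 0.0216 CPM in deleted (SD, n = 2), a log2 fold change of −0.80 ± 0.20. Slc47a2, a proton-coupled exporter of organic cations, rose to 0.975 ± 0.0911 from 0.649 ± 0.1003 CPM (log2 fold change 0.57 ± 0.18.) The other 4 tested genes of the group did not pass, among them the imprinted gene Slc22a18 at 1.29 ± 0.144 and 1.49 ± 0.0263 CPM. Slc22a17 did not pass without deleted 1 or deleted 2 (adjusted p = 0.103 and 0.0682) or in its most counted bin (0.427). Slc47a2 did not pass without any single library except wildtype 3 (0.0905 to 0.226), with DESeq2 (0.0501) or in its most counted bin (0.151).

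Among the remaining groups, Slc34a3 (NaPi-IIc), a sodium-phosphate cotransporter of the kidney, read 1.42, 1.53 and 1.49 CPM in wildtype and 0.954 and 0.767 CPM in deleted, a log2 fold change of −0.78 ± 0.14 (edgeR adjusted p = 0.00414). All 5 of its bins with at least 10 counts were lower on average in the deleted libraries. Slc46a3, a lysosomal carrier, had 0.593 ± 0.0746 CPM in wildtype (SD, n = 3) and 0.372 ± 0.102 CPM in deleted (SD, n = 2), a log2 fold change of −0.68 ± 0.23. That call ended without wildtype 1, wildtype 3 or deleted 1 (adjusted p = 0.101, 0.0629 and 0.289), with DESeq2 (0.0686), with limma-voom (0.0582) and with the replicate block (0.0734). The thiamine carrier gene Slc19a3 had 0.18 ± 0.14 and did not pass.

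**Figure D4:**
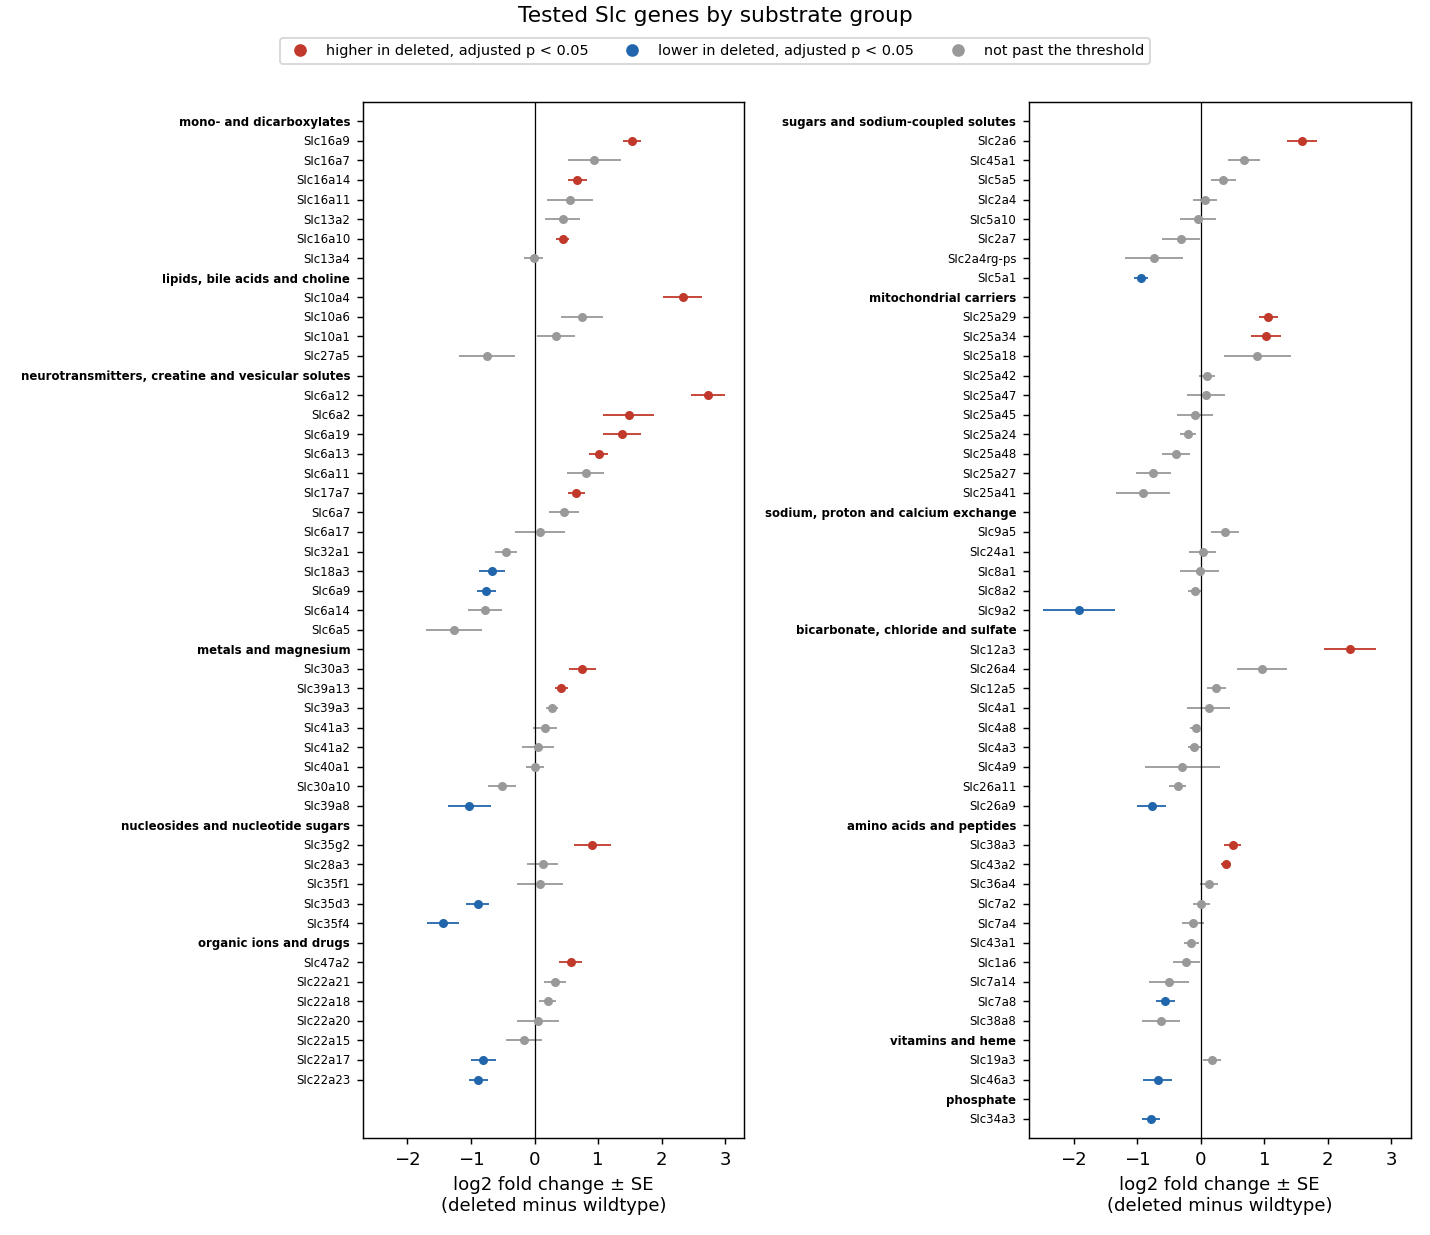
Log2 fold change, deleted minus wildtype, with its SE for each of the 89 tested Slc genes, listed under its substrate group (bold). Red marks the 19 higher and blue the 13 lower genes at an adjusted p under 0.05, and grey the 57 that did not pass. Most groups hold both directions. The mono- and dicarboxylate genes lie near or right of 0, but Slc16a7 and Slc16a11 among them met the filter through the deleted libraries alone.

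Levels can be compared between genes only per length of exon. Any reads of a gene listed under an assembly ID are missing from these levels, so the order holds only for counts under the symbols. Per kb of GENCODE vM21 exon, the highest means over all libraries were 0.990 CPM for Slc43a2, 0.832 CPM for Slc43a1, 0.808 CPM for Slc22a18, 0.770 CPM for Slc39a13 and 0.696 CPM for Slc39a3. Of these 5, Slc43a2 and Slc39a13 passed as higher and the other 3 did not pass. Slc5a1 followed close behind at 0.675 CPM per kb. Slc6a12 and Slc12a3 stood far lower, at 0.108 and 0.0142 CPM per kb.

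By chromosome, all 4 tested Slc genes of chromosome 14 (Slc35f4, Slc22a17, Slc18a3 and Slc7a8) were lower. Of these calls only that of Slc35f4 held with each single library left out. Those of Slc22a17 and Slc7a8 ended without deleted 1 or deleted 2, and that of Slc18a3 without any single library. The median log2 fold change of the 4 genes was −0.74, while the 114 tested symbols of that chromosome had a median of −0.08, with 17.5% lower and 7.02% higher. Slc7a8 and Slc22a17 have 6 protein-coding genes between them. On chromosome 8, where the median of 166 tested symbols was 0.52 on the log2 scale and 41.6% were higher, 2 of 7 Slc genes were higher (Slc12a3 and Slc6a2, with 19 protein-coding genes between them) and 0 lower. Both of these rises met the low-count filter through the deleted libraries alone, and the Slc6a2 call ended without deleted 1 or deleted 2. The other 5 (Slc9a5, Slc5a5, Slc25a42, Slc7a2 and Slc38a8) did not pass. The part of the chromosome 8 shift in the rises of Slc12a3 and Slc6a2 was not tested.

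**Figure D5:**
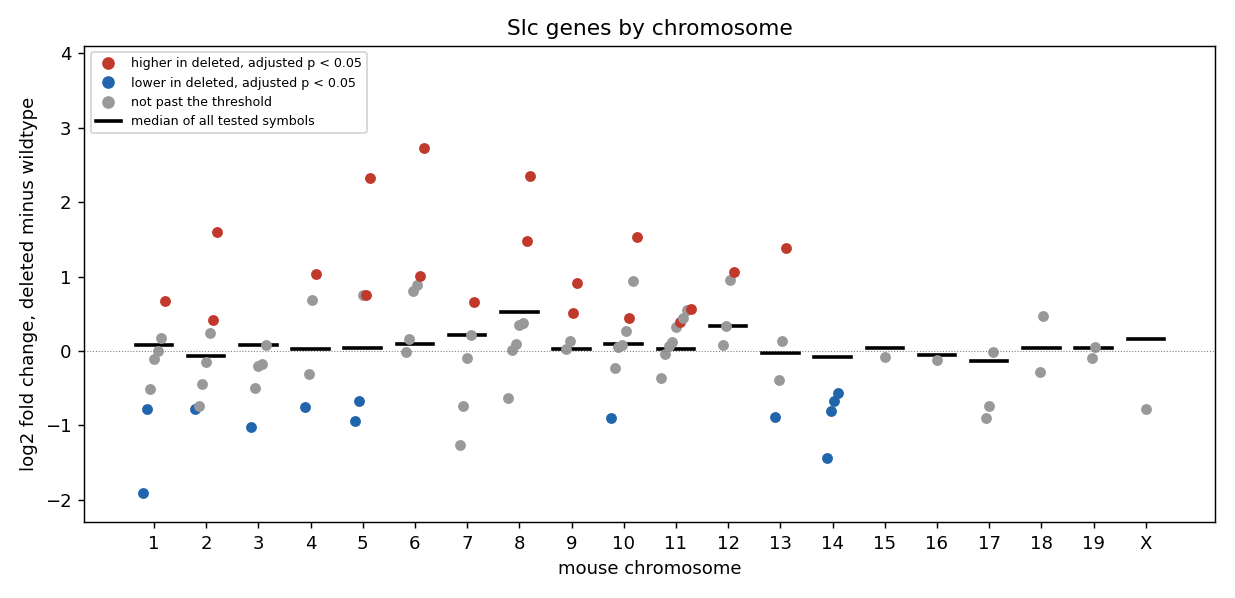
Log2 fold change, deleted minus wildtype, of each tested Slc gene (points) by chromosome, with the median of all tested symbols of that chromosome (black line). All 4 points on chromosome 14 lie below its line of −0.08, but of their calls only that of Slc35f4 held with each single library left out. The line of chromosome 8 is the highest, at 0.52.

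Transporter genes outside the Slc pattern give the setting. Of 64 symbols in 5 other families, 34 were tested, of which 10 rose, 4 fell and 20 did not pass, beside 31.8% called among all tested symbols. Their median log2 fold change was 0.42, against 0.07 for all tested symbols. The 14 calls became 7 without deleted 1, 8 without deleted 2 and 4 in the most counted bin of each gene. In the most counted bin only 19 of these genes were tested, against 34 in the reported fit. ABC transporters, which use ATP, had 7 higher and 2 lower of 16. Abcb5, a multidrug resistance relative, had 0.118 ± 0.0285 CPM in wildtype (SD, n = 3) and rose to 0.495 ± 0.0430 CPM in deleted (SD, n = 2), and the cholesterol exporter gene Abca1 fell from 5.51 ± 0.1101 to 3.68 ± 0.0503 CPM. P-type ion pumps had 2 of 8 higher (Atp2b2 and Atp7b), the Slco organic anion carriers 1 higher and 2 lower of 4, and none of 2 aquaporins or 4 Mfsd genes passed.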

How the data were processed

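Poly(A) RNA of 5 libraries was analysed, 3 wildtype and 2 deleted. The authors deposited raw read counts per exon bin in 1 table of 243771 rows. Per the submitters' processing notes, STAR (no version) and mm9 were used. No annotation, counter or strand setting is given in the sources used here. Counts were summed per gene, and 56 spike-in names were left out. Genes were kept by filterByExpr (10 counts in the median library, 0.0871 CPM, in at least 2 libraries), scaled (TMM) and compared in R 4.3.3 by the quasi-likelihood F test of edgeR 4.0.16 (limma 3.58.1), with Benjamini-Hochberg adjustment over 16259 genes and a threshold of 0.05. SE is the log2 fold change divided by the root of F. Chromosomes, exon lengths, overlaps and gene order come from GENCODE vM21 (GRCm38), which matched 169 of 169 Slc symbols; positions are printed only for RefSeq promoters.

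The genes named are called ones without overlap (up to 15 rises and 15 falls by size), the 2 smallest p-values in each substrate group with at least 3 tested genes, and the 5 highest levels per kb. Other genes named were picked after their values were seen. The members and lists were chosen with earlier results of these data known. Alternatives were DESeq2 1.42.0 and its size factors, limma-voom, TMM on symbol rows, other filters, the most counted bin, a replicate block, each library left out, and, added after seeing the data, edgeR's robust option.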

Additional observations from a re-analysis of the deposited data

How the results depend on the processing

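Each alternative was followed for the 32 called Slc genes and for Slc10a6, Slc9a5, Slc22a18, Slc39a3 and Slc43a1, and none of these changed direction where it could be fitted. Other genes that did not pass were not followed, and TMM on symbol rows moved the median of all genes from 0.01 to −0.07, so the sign of a value near 0 depends on the scaling. Over the settings that kept all 5 libraries, 25 to 36 Slc genes were called against 32 in the reported fit (35 with the replicate block, 28 with DESeq2), 13 to 21 higher and 11 to 18 lower. The number of Slc genes tested also differed, from 67 in the most counted bin to 152 without a filter, against 89 in the reported fit. TMM on symbol rows gave 18 higher and 18 lower. Leaving out 1 library gave 17 to 35 called, 9 to 22 higher and 7 to 13 lower; the lone deleted library is then assumed to vary like the wildtype ones. Other transport families went from 14 called to 4 in the most counted bin and 7 to 15 with 1 library left out. In the most counted bin only 19 of the other transport genes were tested, against 34 in the reported fit. edgeR's robust option, added after seeing the data, gave 19 higher and 13 lower Slc genes. The labels repeat replicate numbers but do not say that they pair libraries, and the correlation of the differences between numbers 1 and 2 in the groups was −0.012, so the block is no paired design. Only wildtype 3 has number 3, so the block fit takes no group difference from it and nearly repeats the fit without wildtype 3. Depth limits genes under about 0.1 CPM, and Slc6a19, Slc6a2, Slc12a3, Slc9a2 and Slc6a12 could not be fitted with at least 10 counts in every library.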
